A study of Mus musculus with 6 samples.

Results

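The intraflagellar transport (IFT) and BBSome genes described here are 33 named entries of a table of 55711 mouse genes, measured by RNA sequencing of testis. They were chosen by gene name as subunits and assembly factors of the IFT trains and of the BBSome, and all 33 names were found once each in the table. The study set 3 libraries labelled Tmc7 knockout against 3 control libraries labelled heterozygote for the same gene, all from testis of the C57BL6 strain. Tmc7 encodes a transmembrane channel-like protein, and the title of the series links it to elongated spermatid volume and vesicles of the trans-Golgi network. The labels state neither the age nor the allele, and do not say whether each library is 1 animal. The p-values therefore cover the spread among these 6 libraries only, which may be technical. Whole testis was used, and in such bulk samples fewer cells of a type and less RNA per cell cannot be told apart.

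Between 17397662 and 19343479 reads per library labelled knockout and between 17059486 and 18629233 reads per control library could be worked back from the deposited values, which were FPKM, a level corrected for the length of the gene and the depth of the library. Tmc7 itself was at 43.8, 41.9 and 35.1 FPKM in libraries labelled knockout, against 39.1, 37.7 and 37.2 FPKM in controls. The RNA level of Tmc7 thus gives no check on which libraries are knockout, and directions below rest on the labels alone. Defining genes of elongated spermatids were abundant in all 6 libraries. A list of 6 epididymal genes summed to at most 0.272 FPKM in libraries labelled knockout and at most 0.351 FPKM in controls, with Lcn5 and Spint4 at 0 throughout. Libraries 2 and 3 labelled knockout stood apart from the other 4, with 0.335% and 0.281% of reads assigned to genes of small or ribosomal RNA, against 0.0949% in library 1 labelled knockout and 0.0997% to 0.105% in controls.

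IFT is the back-and-forth traffic of protein trains along the axoneme that builds and maintains cilia and flagella. Kinesin carries IFT-B trains to the tip, dynein carries trains back with the help of IFT-A, and the BBSome works as a cargo adaptor for membrane proteins. In the mouse, germ cells assemble a sperm flagellum in spermiogenesis, and loss of several of these genes, among them Ift20, Ift88, Ift140, Ift172, Bbs2 and Bbs4, is known to impair sperm flagella.

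Many promoters of ciliary genes hold an X-box, the binding site of RFX transcription factors, and the promoter sequences of the members were searched for it. RefSeq promoter windows on GRCm38.p6, from 250 bases before to 50 bases after the start of transcription, were at hand for 29 of the 33 members. The motif was GTTNCC, any 2 letters, then GGNAAC, which makes 14 letters of which 10 are fixed. It reads the same on both strands, so a match on 1 strand is a match on the other. It was present without a mismatch in 2 of 29 members (6.90%), against 0.529% of 27025 genes with such a window and 0.805% of the 12043 of them that were expressed highly enough to be tested below. With 1 mismatch allowed it was present in 6 members (20.7%), against 2.89% of all genes and 4.28% of tested genes. With 2 allowed it was present in 12 members (41.4%), against 15.8% and 18.9%. These shares describe letters in a window and do not show binding. The 6 members held 7 such sites, since Ift22 has a pair of sites with 1 mismatch each. Only the spacing of 2 letters was searched. In the Ift57 stretch below, gttgcctggtaac fits GTTNCC and GGNAAC with 1 letter between them, and it was not counted. All 7 sites are shown because no other site of the searched spacing in the members' windows comes as close to the motif. Capitals stand for the letters that fit a fixed position.
Bbs7: GTTgCCttGGaAAC
Ttc26: GTTgCCgtGGaAAC
Bbs1: GTTgCCaaGGcgAC
Bbs4: GTcgCCcgGGaAAC
Ift22, first site: GTTtCCtgGGctAC
Ift22, second site: GTcgCCgtGGaAAC
Ift57: GTTgCCgtGGtgAC

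The first base of the match lay 121 bases before the RefSeq start site in Bbs7, 33 before it in Ttc26, 63 and 33 before it in Ift22 and 87 before it in Ift57, and 1 and 23 bases after it in Bbs1 and Bbs4. The gene coordinates of the data begin elsewhere for Bbs7 (36613477), Ttc26 (38381469) and Ift57 (49699233). By these the Ttc26 match, chr6:38381491-38381504, lies inside the gene. The Bbs1 match is chr19:4906613-4906626 and the Bbs4 match chr9:59353472-59353485, both on the minus strand, and the Ift22 matches are chr5:136908087-136908100 and chr5:136908117-136908130 on the plus strand. Upstream stretches of 250 bases are given in full for 3 genes, those of the exact matches and that of Ift57, whose level is described below. Capitals mark the matched block. The Bbs7 stretch is chr3:36613390-36613639 on the minus strand, the Ttc26 stretch chr6:38381274-38381523 on the plus strand, and the Ift57 stretch chr16:49699044-49699293 on the plus strand, all in GRCm38.p6 and read toward the gene.
Bbs7: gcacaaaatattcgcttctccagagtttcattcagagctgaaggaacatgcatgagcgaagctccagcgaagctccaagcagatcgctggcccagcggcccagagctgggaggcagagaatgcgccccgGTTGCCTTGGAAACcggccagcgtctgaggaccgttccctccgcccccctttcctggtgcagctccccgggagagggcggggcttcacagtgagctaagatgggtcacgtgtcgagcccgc
Ttc26: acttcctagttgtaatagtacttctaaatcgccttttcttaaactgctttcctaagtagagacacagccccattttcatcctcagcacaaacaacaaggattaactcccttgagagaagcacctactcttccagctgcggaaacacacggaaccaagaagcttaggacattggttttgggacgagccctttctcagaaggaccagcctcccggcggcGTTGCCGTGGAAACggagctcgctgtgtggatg
Ift57: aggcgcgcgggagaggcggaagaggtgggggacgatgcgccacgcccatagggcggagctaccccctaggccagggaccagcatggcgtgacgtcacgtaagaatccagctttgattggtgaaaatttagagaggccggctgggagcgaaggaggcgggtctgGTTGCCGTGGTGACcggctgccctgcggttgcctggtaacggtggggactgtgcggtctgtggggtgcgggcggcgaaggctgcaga

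RFX factors were measured in the same libraries. Rfx2 was at 68.5, 82.6 and 76.8 FPKM in libraries labelled knockout and 74.8, 72.0 and 65.5 FPKM in controls. Rfx1 was at 24.8, 30.8 and 23.9 FPKM in libraries labelled knockout and 26.0, 23.7 and 19.4 FPKM in controls. Foxj1, a transcription factor of motile cilia, was at 45.6 ± 11.6 FPKM in libraries labelled knockout and 39.0 ± 3.13 FPKM in controls (SD, n = 3 each). The groups overlapped for all 3 genes.

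All 33 members were expressed, and their levels spread widely. Mean levels over the 6 libraries lay between 2.10 FPKM for Bbs12 and 92.1 FPKM for Ift140, a ratio of 43.9. The median member was at 14.9 FPKM, against 3.66 FPKM for the median of the 19168 genes that averaged 0.5 FPKM or more, and all 33 members passed this filter. Between 85 and 15356 reads stood behind each value, with the fewest for Bbs12 and the most for Ift140. FPKM is a level per length, so members are set beside each other on this scale. For every member but Bbs1 that length was that of all annotated exons together, not of the transcripts present in testis. The part of annotation in the ratios between members was not tested.

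Genes of 1 complex were not at 1 level. Among the 7 IFT-A genes the ratio of the highest to the lowest was 12.8, with Ift140 at 92.1 and Wdr19 at 7.18 FPKM, although both encode core subunits of IFT-A. Among the 16 IFT-B genes it was 33.1, with Ift172 at 90.5 and Ttc30b at 2.73 FPKM. The value of Ttc30b is uncertain, because 44.4% of its 31-base words occur in transcripts of other genes, 38.7% in its paralogue Ttc30a2, which was at 74.7 ± 10.7 and 71.8 ± 2.76 FPKM (labelled knockout and control, SD, n = 3 each). Cluap1 is also uncertain, with 36.1% of its words shared, 20.65% with Gm20695. That gene overlaps Cluap1 on the same strand and was at a mean of 0.092 FPKM. The 10 BBS genes were lower as a group, with Bbs5 highest at 23.1 FPKM and a median of 7.77 FPKM, against medians of 35.6 FPKM for IFT-A and 18.3 FPKM for IFT-B.

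**Figure D1:**
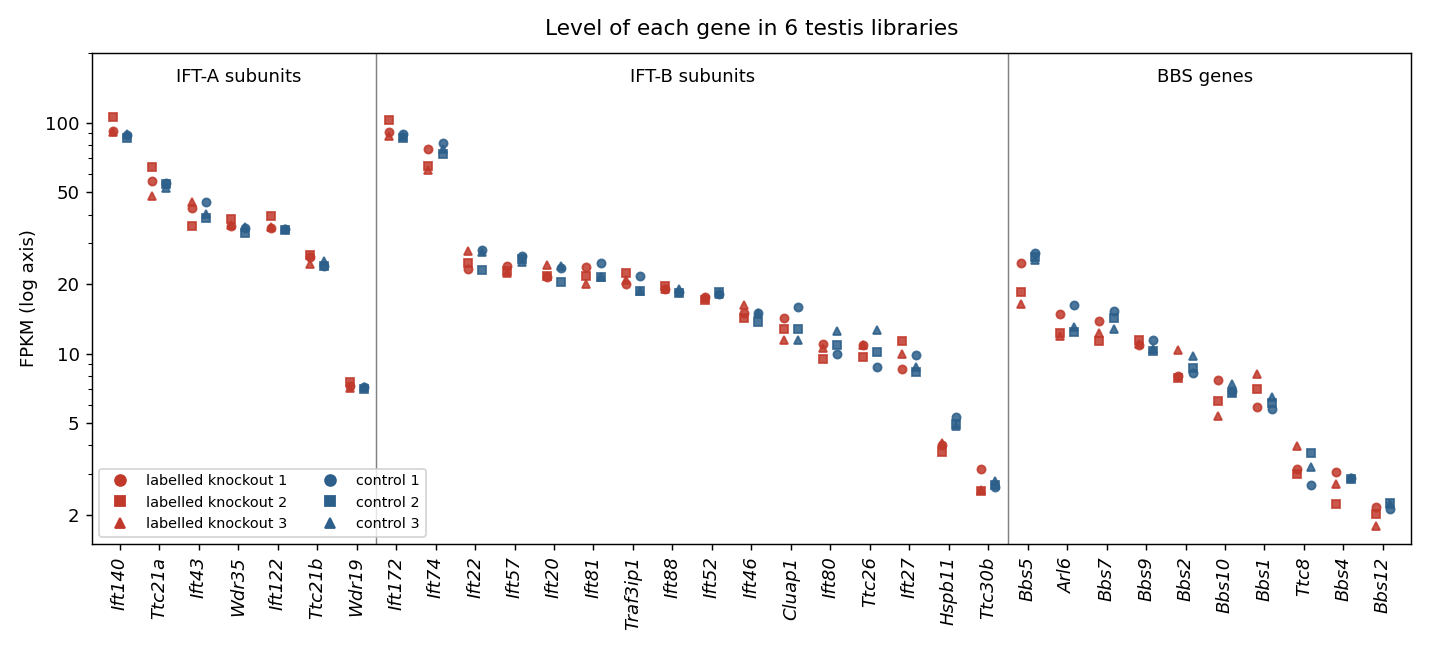
FPKM of each of the 33 genes on a log axis, ordered by mean level within IFT-A, IFT-B and the BBS genes, with red points for the 3 libraries labelled knockout left of blue points for the 3 controls. The levels run from Ift140 at 92.1 FPKM to Bbs12 at 2.10 FPKM, and the spread between genes is far wider than the spread between libraries of 1 gene.

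The levels varied little between libraries. The coefficient of variation over the 6 libraries had a median of 9.08% over the members, 5.35% in IFT-A, 7.98% in IFT-B and 12.1% in the BBS genes. For 11673 genes in the same range of mean level the median was 12.8%. These genes were not matched to the members on level within that range. The part of level in the difference between the medians was not tested. Summed over the 33 members, the level was 772, 781 and 739 FPKM in libraries labelled knockout and 786, 739 and 763 FPKM in controls, so the groups overlapped.

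The comparison of the libraries labelled knockout with controls found no member past the threshold. By limma on log2(FPKM + 1) with Benjamini-Hochberg adjustment over all 19168 genes tested, 0 of 33 members were higher and 0 lower at an adjusted p under 0.05, and the background was 0% of all genes in either direction. The smallest adjusted p of a member was 0.868. Before adjustment, 0 members were higher and 2 lower at p under 0.05, against 1.48% and 2.38% of all genes, and limma-voom on the recovered reads also called 0 members, with 2 of 33 below 0.05 before adjustment, against 781 of 20556 genes (3.8%). Without library 1 labelled knockout, 4 members (12.1%) were below 0.05, a smaller share than the 18.2% of all genes in that setting. Without control library 1 the count was 0, against 3.14% of all genes, and without any 1 of the other 4 libraries it was 1 (3.03%), against 2.47% to 3.45%. The log2 difference was above 0 in 16 members and below 0 in 17, against 48.6% and 51.4% of all genes. Its median was -0.0044, against -0.0058 over all genes. With quantile scaling the median was 0.0061, against 0.012 over all genes, and with upper quartile scaling 0.029, against 0.020. The log2 difference of a member lay between -0.41 and 0.16, and the median standard error of a member was 0.11.

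In 3 members every library labelled knockout was above every control, against 4.15% of all genes, and in 4 members every one was below, against 4.41%. The 3 were Ift140, Wdr35 and Ift122 of IFT-A, and the 4 were Hspb11, Ift57 and Ift52 of IFT-B and Bbs5 of the BBSome. As shares these were 9.09% and 12.1% of the 33 members.

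**Figure D2:**
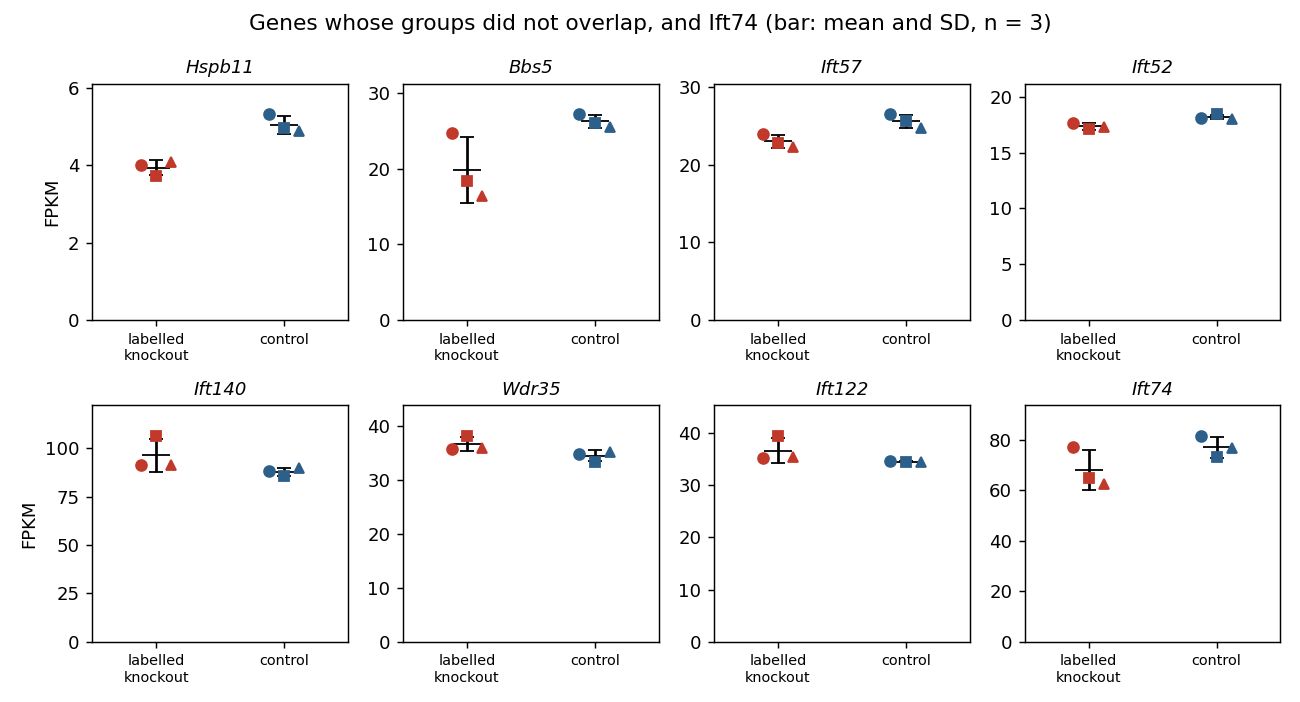
FPKM of 8 genes by group, from 0, with the libraries labelled knockout at left and controls at right; points are libraries and bars the mean and SD of 3. In the first 7 panels the groups do not overlap, and Ift74 is shown as an abundant gene whose groups do.

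Of the 7 IFT-A genes 6 had a log2 difference above 0, with a median of 0.078 and a range from -0.0044 to 0.13, and none passed the test. Ift140, on chromosome 17 from 25016085 to 25099495 in GRCm38, was at 91.6, 106 and 91.4 FPKM in libraries labelled knockout, against 88.0, 85.5 and 89.7 FPKM in controls. All 3 were above the controls, with library 2 furthest. The log2 difference was 0.13 ± 0.096 (SE), its 95% interval ran from -0.096 to 0.36, and the adjusted p by limma was 0.868.

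Wdr35, which encodes the peripheral IFT-A subunit IFT121, was at 35.8, 38.1 and 36.0 FPKM in libraries labelled knockout and at 34.8, 33.3 and 35.3 FPKM in controls. Ift122, a core subunit, was at 35.1, 39.4 and 35.4 FPKM in libraries labelled knockout and at 34.6, 34.4 and 34.5 FPKM in controls. In both genes library 2 labelled knockout was the highest, and the other 2 lay just above the controls, so that the log2 differences were 0.085 and 0.082 (limma adjusted p = 0.868 for each). Wdr19, the core subunit IFT144, was nearly level at 7.27 ± 0.223 FPKM in libraries labelled knockout and 7.10 ± 0.0836 FPKM in controls (SD, n = 3 each). Ift43, a small peripheral subunit, was at 42.9, 35.8 and 45.4 FPKM in libraries labelled knockout and at 45.1, 38.7 and 40.3 FPKM in controls, with full overlap.

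Ttc21b encodes IFT139 and Ttc21a its paralogue, which is also needed in the sperm flagellum. Ttc21a was at 55.6, 64.0 and 48.0 FPKM in libraries labelled knockout, against 54.7, 54.3 and 52.1 FPKM in controls. Ttc21b was at 26.1, 26.8 and 24.4 FPKM in libraries labelled knockout, against 23.9, 24.0 and 25.2 FPKM in controls. Ttc21a was thus the more abundant of the pair in every library, with a ratio of 2.16 ± 0.212 in the libraries labelled knockout and 2.21 ± 0.119 in controls (SD, n = 3 each). The groups overlapped for both genes and for their ratio.

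Library 2 labelled knockout had the highest IFT-A level. The median over the 7 genes of the log2 level, each gene centred on its mean over the 6 libraries, was 0.012, 0.099 and -0.0076 in the libraries labelled knockout and -0.028, -0.060 and -0.031 in controls. In the same library, tested protein-coding genes with a length over 6000 bases and a mean of at least 2 FPKM had a median of 0.063, with -0.010 and -0.029 in libraries 1 and 3 labelled knockout and -0.039, 0.0072 and 0.017 in controls. Ift140, Wdr35 and Ift122 have gene lengths of 8333, 7273 and 10319 bases. Hspb11, Bbs5, Ift52 and Ift57, in which every library labelled knockout was below every control, have 2071, 2445, 2802 and 2862 bases. Members of up to 4000 bases had medians of -0.0095, -0.084 and -0.064 in libraries labelled knockout, and 0.096, -0.014 and 0.033 in controls. Longer members had 0.011, 0.061 and -0.0099, against -0.024, -0.043 and -0.010 in controls. Tested protein-coding genes of 2000 to 4000 bases had -0.0005, 0.015 and 0.028, against 0.030, -0.031 and -0.026. The part of gene length in these results was not tested. Without library 2 labelled knockout the median log2 difference of IFT-A was 0.050, and the difference of Ift140 was 0.060.

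The IFT-B genes had no common direction, with 7 of 16 above 0 and 9 below and a median log2 difference of -0.029 (0.0036 with upper quartile scaling). Of the 10 subunits of the IFT-B core, Hspb11 differed most. Hspb11 encodes IFT25, which pairs with the small GTPase IFT27 and is known in the mouse to be needed for the sperm flagellum. It lies on chromosome 4 from 107253593 to 107279938 and was at 4.01, 3.73 and 4.09 FPKM in libraries labelled knockout, against 5.31, 4.95 and 4.88 FPKM in controls. The groups did not overlap and were each tight, at 3.94 ± 0.187 and 5.05 ± 0.233 FPKM (labelled knockout and control, SD, n = 3 each). The log2 difference was -0.29 ± 0.092 (SE), its 95% interval ran from -0.51 to -0.075, and the adjusted p by limma was 0.868 (unadjusted 0.0154). Between 134 and 194 reads stood behind each value, and 10.5% of its 31-base words occur in transcripts of other genes.

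Ift27, the partner of IFT25, did not share this direction. It was at 8.53, 11.4 and 9.92 FPKM in libraries labelled knockout and at 9.87, 8.28 and 8.76 FPKM in controls, with overlap and a log2 difference of 0.13 (limma adjusted p = 0.868). The ratio of Ift27 to Hspb11, chosen after the values were seen, was 2.13, 3.05 and 2.43 in the libraries labelled knockout and 1.86, 1.67 and 1.80 in controls. Every ratio was higher in the libraries labelled knockout, and no test was made of it.

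Ift74 and Ift81 encode a dimer whose human proteins bind tubulin. Ift74 was at 76.9, 64.7 and 62.3 FPKM in libraries labelled knockout, against 81.4, 73.0 and 76.6 FPKM in controls, and library 1 labelled knockout lay among the controls. Its log2 difference was -0.18 ± 0.11 (SE; limma adjusted p = 0.868). Ift81 was at 23.7, 21.6 and 20.03 FPKM in libraries labelled knockout and at 24.7, 21.4 and 21.5 FPKM in controls. Ift74 was the more abundant in every library, with a ratio to Ift81 of 3.12 ± 0.124 in the libraries labelled knockout and 3.42 ± 0.129 in controls (SD, n = 3 each). Every ratio in the libraries labelled knockout was below every ratio in controls. This ratio too was added after its values were seen, and no test was made of it. Further ratios were formed. That of Ift140 to Wdr19 was higher in every library labelled knockout than in every control. Those of Ift172 to Ttc30b, Ift172 to Ift88 and Bbs5 to Bbs1 overlapped. How often ratios of other genes separate in this way was not counted.

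Ift88, a core subunit whose hypomorphic allele is a classic mouse ciliopathy, varied little, at 19.0, 19.6 and 19.0 FPKM in libraries labelled knockout and 18.4, 18.4 and 19.0 FPKM in controls. Its log2 difference was 0.044 with a 95% interval from -0.13 to 0.22. Ift52, another core subunit, was at 17.6, 17.1 and 17.3 FPKM in libraries labelled knockout and at 18.1, 18.4 and 18.04 FPKM in controls. These groups did not overlap, but the log2 difference was -0.064 (limma adjusted p = 0.877). Ift22, a small GTPase of the core, was at 23.1, 24.8 and 27.8 FPKM in libraries labelled knockout and at 28.0, 23.0 and 27.5 FPKM in controls. The other core subunits Ift46, Ttc26 and Ttc30b had log2 differences between 0.0057 and 0.052.

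The peripheral IFT-B subunits were led by Ift172, a large protein known from Chlamydomonas to take part in the turnaround of trains at the tip. It was at 90.9, 103 and 87.9 FPKM in libraries labelled knockout, against 89.1, 85.7 and 87.1 FPKM in controls, with library 2 labelled knockout again highest and library 3 among the controls. Its log2 difference was 0.099 ± 0.094 (SE; limma adjusted p = 0.868). Ift57, the subunit whose promoter is shown above, was at 23.9, 22.9 and 22.3 FPKM in libraries labelled knockout and at 26.5, 25.6 and 24.8 FPKM in controls. The groups did not overlap, and the log2 difference was -0.15 with a 95% interval from -0.33 to 0.038 (limma adjusted p = 0.868). An antisense gene, Gm15518, overlaps 7.86% of its exon bases but was at a mean of 0.0694 FPKM.

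Ift20 is the subunit that also sits at the Golgi and carries membrane proteins from there to the cilium. It was at 21.4, 21.7 and 24.3 FPKM in libraries labelled knockout, against 23.6, 20.5 and 24.0 FPKM in controls. The groups overlapped fully, and the log2 difference was -0.013 ± 0.099 (SE), with a 95% interval from -0.25 to 0.22 (limma adjusted p = 0.983). With quantile and upper quartile scaling it was 0.0055 and 0.021. The remaining peripheral subunits, Traf3ip1 (IFT54), Cluap1 (IFT38) and Ift80, had log2 differences of 0.096, -0.046 and -0.093, and their groups overlapped.

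**Figure D3:**
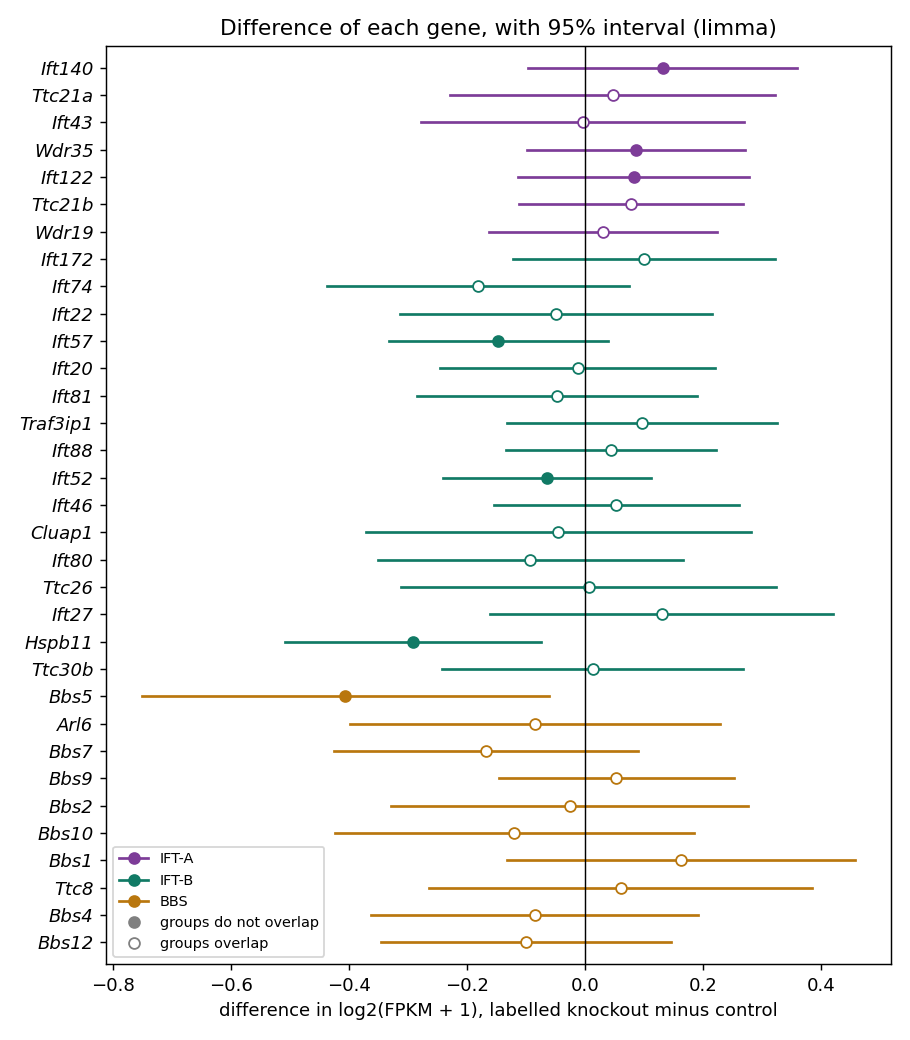
Difference in log2(FPKM + 1), labelled knockout minus control, for each of the 33 genes with its 95% interval from limma; filled points are genes whose groups do not overlap. The intervals of Hspb11 and Bbs5 lie below 0, and the other 31 include 0.

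Among the BBS genes 3 of 10 had a log2 difference above 0 and 7 below, with a median of -0.085. Without library 1 labelled knockout this median was -0.15, without library 2 it was -0.023, and without library 3 it was -0.043. Bbs5 encodes a BBSome subunit that binds phosphoinositide lipids and lies on chromosome 2 from 69647171 to 69667571. It was at 24.7, 18.4 and 16.4 FPKM in libraries labelled knockout, against 27.2, 26.1 and 25.5 FPKM in controls. Libraries 2 and 3 labelled knockout were well below, and library 1 was less than 1 FPKM under the lowest control. The log2 difference was -0.41 ± 0.15 (SE), its 95% interval ran from -0.75 to -0.062, and the adjusted p by limma was 0.868 (unadjusted 0.0268). Without library 1 labelled knockout it was -0.57, with a limma adjusted p of 0.140, the smallest value in that setting, held by 162 genes. Bbs5 ranked 76 there by unadjusted p among 19168 genes, of which 3491 were under 0.05 before adjustment. Without both libraries 2 and 3 it was -0.085.

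Late spermatid markers also differed between the libraries. For 17 markers of elongating and elongated spermatids, all in the table and none at 0, the median of the centred log2 level was 0.31, -0.33 and -0.58 in the libraries labelled knockout and 0.48, 0.27 and -0.19 in controls. Their summed level was 9946 to 19035 FPKM in libraries labelled knockout and 13168 to 22207 FPKM in controls. Of 11 round spermatid markers Actl7b was listed at 0 in every library and 10 were tested, with medians of 0.15, -0.22 and -0.21 in the libraries labelled knockout and 0.22, 0.089 and -0.0075 in controls. For 10 Sertoli markers the medians were -0.15, 0.19 and 0.32 in the libraries labelled knockout and -0.20, -0.17 and -0.016 in controls. For 7 Leydig markers they were 0.17, 0.13 and -0.61 in the libraries labelled knockout and -0.13, 0.037 and 0.18 in controls. For 5 macrophage markers they were -0.22, 0.27 and 0.33 in the libraries labelled knockout and -0.20, -0.10 and -0.13 in controls. For 4 tested peritubular myoid markers they were -0.16, 0.46 and 0.16 in the libraries labelled knockout and -0.14, -0.20 and -0.083 in controls. Libraries 2 and 3 labelled knockout, the lowest for Bbs5, were also the libraries whose share of small or ribosomal RNA stood apart, at 0.335% and 0.281%. The part of these levels in the values of Bbs5 and of the other members was not tested.

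**Figure D4:**
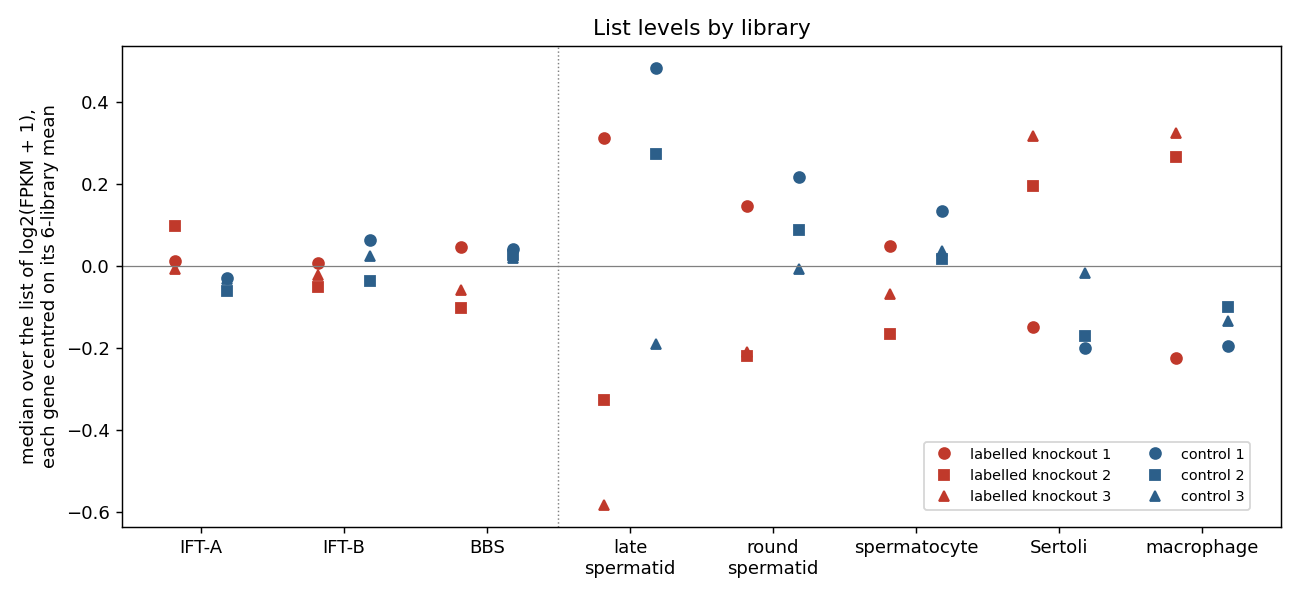
Median over each list of log2(FPKM + 1), each gene centred on its mean over 6 libraries, for the IFT-A, IFT-B and BBS genes and for 5 lists of cell type markers, with libraries labelled knockout in red at left and controls in blue at right. The medians of the IFT-A, IFT-B and BBS genes stay between -0.10 and 0.099 in every library, while the late spermatid list runs from -0.58 to 0.48.

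The other members of the BBSome overlapped between the groups. Bbs7 forms the core of the complex with Bbs2 and Bbs9, and its promoter window holds an exact match to the X-box motif. Its level was 13.8, 11.3 and 12.3 FPKM in libraries labelled knockout and 15.3, 14.3 and 12.7 FPKM in controls. The log2 difference was -0.17. Bbs2 was at 8.001, 7.84 and 10.4 FPKM in libraries labelled knockout and at 8.21, 8.68 and 9.76 FPKM in controls. Bbs4, known for its place at the centriolar satellites, was at 3.06, 2.22 and 2.73 FPKM in libraries labelled knockout and at 2.89, 2.87 and 2.88 FPKM in controls. Library 1 labelled knockout was above and the other 2 below these tight controls.

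Bbs1, which binds the GTPase that recruits the complex, had the highest log2 difference of the 33 members at 0.16 ± 0.13 (SE; limma adjusted p = 0.868). It was at 5.86, 7.05 and 8.13 FPKM in libraries labelled knockout, against 5.75, 6.11 and 6.51 FPKM in controls, with library 1 labelled knockout among the controls. That GTPase, Arl6 (BBS3), was at 14.9, 12.3 and 11.9 FPKM in libraries labelled knockout and at 16.3, 12.4 and 13.0 FPKM in controls. Bbs9 and Ttc8 (BBS8) had log2 differences of 0.053 and 0.060. The chaperonin-like factors Bbs10 and Bbs12, which help to assemble the complex, were at 6.43 ± 1.17 and 1.99 ± 0.191 FPKM in libraries labelled knockout and at 7.01 ± 0.333 and 2.20 ± 0.0722 FPKM in controls (SD, n = 3 each), with adjusted p of 0.870 and 0.869 by limma.

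Outside the members, a list of 34 motors, partners and regulators of the pathway held 33 genes that could be tested. None of them passed in either direction (smallest limma adjusted p 0.868). Before adjustment 0 were under 0.05 by limma and 0 by limma-voom. Without library 1 labelled knockout 5 (15.2%) were, as were 18.2% of all genes. The log2 difference was above 0 in 13 (39.4%) and below 0 in 20 (60.6%), against 48.6% and 51.4% of all genes. The median log2 difference was -0.019. Kif3a, a motor subunit of the kinesin that drives IFT, was at 28.6, 28.3 and 26.4 FPKM in libraries labelled knockout and at 29.0, 25.3 and 27.8 FPKM in controls. Dync2h1, the heavy chain of the dynein that carries trains back, was at 17.5, 19.7 and 17.3 FPKM in libraries labelled knockout and at 16.1, 18.8 and 20.7 FPKM in controls. Dynlrb1, a dynein light chain, was the only 1 of the 33 (3.03%) whose libraries labelled knockout all lay above the controls, against 4.15% of all genes. In none did they all lie below, against 4.41%. Dynlrb1 was at 13.2, 13.5 and 14.0 FPKM in libraries labelled knockout and 12.4, 11.6 and 11.8 FPKM in controls. Its log2 difference was 0.17 (limma adjusted p = 0.868). Rfx1, described above, had the next smallest unadjusted p above 0, with a log2 difference of 0.20 (limma adjusted p = 0.868). Among genes below 0 the smallest unadjusted p was that of Tctex1d2, a dynein light chain at 28.6, 21.1 and 25.1 FPKM in libraries labelled knockout and 32.8, 27.4 and 30.4 FPKM in controls. Kifap3, the accessory subunit of the kinesin, came next at 82.0, 65.8 and 51.6 FPKM in libraries labelled knockout and 80.4, 75.6 and 72.8 FPKM in controls. The groups overlapped for both, with log2 differences of -0.27 and -0.22 (limma adjusted p = 0.868 for each).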

How the data were processed

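Testis RNA of 3 libraries labelled Tmc7 knockout and 3 labelled heterozygote control was sequenced. Trizol extraction and the SMARTER mRNA-Seq kit are named per the labels' protocols. The values are FPKM as deposited by the authors in a single table. GRCm38 and mm10 come from the submitters' processing notes; no aligner, counter or strand setting was given in the sources. FPKM times gene length was divided by a step fitted in each library, started at the smallest non-zero product. The results were whole numbers, within 0.001, for 100% of non-zero values. That a step stands for a single read was assumed.

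Genes averaging 0.5 FPKM or more were tested on log2(FPKM + 1), a scale that understates changes of low genes, with limma 3.58.1 in R 4.3.3 (trend on, no covariate) and Benjamini-Hochberg adjustment over all of them. Alternatives were a pseudocount of 0.1, other filters, quantile and upper quartile scaling, the replicate number as a block, limma-voom on reads (mean of at least 10), and each library left out; leaving out libraries 2 and 3 labelled knockout together was chosen after seeing the data. Members, lists and tests were chosen with earlier results of these data known. Values per library are given for the 3 highest members of each group, the 3 of smallest p in each direction, the Ttc21 pair and 10 genes known from mouse sperm flagella. Ift122, Ift52, Wdr19, Rfx2, Foxj1, Ttc30a1, Ttc30a2 and the ratios were added after their values were seen. Shared words were counted over GENCODE M21 transcripts, on either strand.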

Additional observations from a re-analysis of the deposited data

How the results depend on the processing

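No member passed under any of the 14 alternatives (smallest limma adjusted p 0.140, Bbs5 without library 1 labelled knockout), and no pathway gene did. Over all genes 0 passed, except 1 with limma-voom. The median log2 difference of the members was 0.029 with upper quartile scaling, against 0.020 over all genes. It ranged from -0.040 to 0.027 with each library left out. Over the same omissions IFT-A ranged from 0.050 to 0.11, IFT-B from -0.064 to 0.0078 and the BBS genes from -0.15 to -0.023. Without libraries 2 and 3 labelled knockout together, the lone library being assumed to vary like the controls, the median was 0.013 for IFT-B and -0.012 for the BBS genes.

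Signs were followed only for the members whose values per library were planned, so not for Ttc26, Ttc30b, Wdr19 or Cluap1, among others. Some of the followed members changed sign, and the cause was not tested. Ift20 and Ift43 were at 0.0055 and 0.039 with quantile normalization and at 0.021 and 0.029 with upper quartile scaling, which put Bbs2 at 0.0047. With each library left out, Arl6 ranged from -0.18 to 0.026, Bbs2 from -0.14 to 0.039, Bbs4 from -0.16 to 0.0046, Ift20 from -0.081 to 0.027, Ift22 from -0.14 to 0.0093, Ift43 from -0.074 to 0.093, Ift81 from -0.11 to 0.016 and Ttc21a from -0.054 to 0.15. Without libraries 2 and 3 labelled knockout, Arl6, Bbs4, Ift43 and Ift81 were at 0.10, 0.067, 0.053 and 0.072, Bbs1 and Ift27 at -0.052 and -0.062 (0.16 and 0.13 with all libraries), and Ift74 at 1.2e-05 (-0.18). Before adjustment, 2 pathway genes (6.06%) were under 0.05 by limma with the replicate block, against 7.36% of all genes. With upper quartile scaling and with a filter of any mean above 0 the count was 1 (3.03%), against 3.82% and 3.57% of all genes.

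Same-numbered libraries had correlations of their deviations of 0.286, 0.0413 and 0.198, and not every library correlated best with its own number, so the numbers were not taken as pairs. With the replicate number as a block 0 members and 0 genes passed (smallest limma adjusted p 0.662 and 0.263), and 1411 genes, against 741 without it, were under 0.05 before adjustment.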
